A study of Homo sapiens with 24 samples.

Results

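The 8 subunits of the human condensin complexes were followed through all 24 RNA-seq libraries of the series. They were taken by name, as the complete set of proteins that build condensin I and condensin II, and they are 8 of the 60675 genes in the count tables. SMC2 and SMC4 belong to both complexes. NCAPD2, NCAPG and NCAPH belong to condensin I, and NCAPD3, NCAPG2 and NCAPH2 belong to condensin II. All 8 passed the filter on low counts in every comparison, with 333 to 9258 read pairs per library.

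Condensins are ring-shaped motors that extrude loops of DNA. SMC2 and SMC4 form the long arms and the ATP-hydrolysing heads, a kleisin (NCAPH or NCAPH2) bridges the heads, and a pair of HEAT-repeat subunits (NCAPD2 and NCAPG, or NCAPD3 and NCAPG2) holds the DNA. Condensin II is nuclear throughout the cell cycle and starts to compact chromosomes in prophase, whereas condensin I is largely cytoplasmic in interphase and reaches the chromosomes after the nuclear envelope breaks down, and the mRNAs of several subunits are known to rise in dividing cells.

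The RNA came from ACHN, a human renal cancer cell line, and HK-2, an immortalised line from human proximal tubule epithelium. Each line had 4 groups of 3 libraries, all of them lines stably infected with pLKO.1 lentivirus and selected on puromycin. The shNC cells carried a control hairpin, the shKDM5C cells a hairpin against KDM5C, and the shYY1 cells a hairpin against YY1. The double knockdown was made from YY1-depleted cells that then received a KDM5C hairpin labelled with GFP. These cells were also selected for green fluorescence, which the sources used here do not state for the other groups. KDM5C is a demethylase of histone H3 lysine 4 and YY1 is a zinc finger transcription factor. Which of the hairpins per gene was sequenced is not given in the sources used here, so that each group stands for 1 hairpin or hairpin pair in 1 line. Nothing in the labels says that the 3 libraries of a group came from separate cultures, and the p-values therefore measure only the spread between these libraries, which may be technical.

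To show the sequence around the start sites whose genes are described first, 210 bases of RefSeq promoter (GRCh38.p14, from 200 bases before the first transcribed base, which is counted as position 0) are printed for SMC4, SMC2, NCAPG and NCAPD2. The RefSeq table held 10 windows of 300 bases for 7 of the 8 subunits, and NCAPH2 had no entry. SMC4 lies on chr3:160399450-160399659 (plus strand), and the capitals mark AANATGGC, a YY1 motif, and its core CCATNTT, read on either strand. SMC2 lies on chr9:104094109-104094318 (plus strand) and NCAPG on chr4:17810779-17810988 (plus strand), and the capitals mark TTTGAA or its complement TTCAAA, the letters of a cell cycle homology region. NCAPD2 lies on chr12:6493902-6494111 (plus strand), and the capitals mark TTTGAA and, read on the opposite strand, CCAAT boxes.
SMC4: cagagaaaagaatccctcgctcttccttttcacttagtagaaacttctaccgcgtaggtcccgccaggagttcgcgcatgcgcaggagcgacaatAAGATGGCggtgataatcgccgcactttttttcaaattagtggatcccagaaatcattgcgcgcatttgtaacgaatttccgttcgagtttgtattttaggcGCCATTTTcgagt
SMC2: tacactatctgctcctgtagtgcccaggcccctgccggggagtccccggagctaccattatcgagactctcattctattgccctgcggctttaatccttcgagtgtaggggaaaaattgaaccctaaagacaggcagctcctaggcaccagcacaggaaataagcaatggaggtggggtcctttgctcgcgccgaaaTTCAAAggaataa
NCAPG: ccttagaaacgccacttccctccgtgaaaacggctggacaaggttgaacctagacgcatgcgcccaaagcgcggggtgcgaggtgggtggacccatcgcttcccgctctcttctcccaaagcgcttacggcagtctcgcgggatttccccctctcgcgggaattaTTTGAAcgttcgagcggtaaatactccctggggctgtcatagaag
NCAPD2: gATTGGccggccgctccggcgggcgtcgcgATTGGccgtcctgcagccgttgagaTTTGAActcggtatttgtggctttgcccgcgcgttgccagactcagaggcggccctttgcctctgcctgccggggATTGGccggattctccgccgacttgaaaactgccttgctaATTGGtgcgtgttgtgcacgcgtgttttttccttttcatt

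Of the 7 subunits with a window, SMC4 alone held AANATGGC, at -105 to -98 on the printed strand and at -3 to 4 on the opposite strand. The letters were thus in 1 of the 10 windows, a share near the 6.578% of the 35116 RefSeq promoter windows of the same length. The core CCATNTT was also found in SMC4 alone, where it overlaps both longer matches. This too was 1 of the 10 windows, near the 15.58% of all windows. A cell cycle homology region (TTTGAA or TTTAAA on either strand), the element through which promoters of mitotic genes are held silent in resting cells, was found in 7 of the 10 windows and in all 7 subunits, against 23.99% of all windows. It lies at -3 to 2 in SMC2, at -75 to -70 in SMC4, at -145 to -140 in NCAPD2 and at -35 to -30 in NCAPG. In NCAPD3 it lies at -3 to 2, and in NCAPH (32 to 37) and NCAPG2 (35 to 40) after the start. CCAAT was found in NCAPD2, which has 4 copies, and in NCAPH and NCAPD3. These are 3 of the 10 windows, near the 34.61% of all windows. An E2F motif (TTTCCCGC, TTTGGCGC, TTTCGCGC or TTTGCCGC) was found in NCAPD3 alone, in 1 of the 10 windows, against 3.315% of all windows. These matches describe letters in a window and not binding.

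The libraries held 15926561 to 24272298 counted read pairs. One library stood apart, HK-2 shKDM5C replicate 1. Its counts differed from those of the other 2 libraries of its group by a chi-square of 112.1 and 107.2 per gene, whereas those 2 differed from each other by 3.09, and the 22 pairs of replicates without it by 1.887 to 6.378. Mitochondrial genes took 11.83% of its counts, against 4.751% to 5.519% in the 11 other HK-2 libraries. Main tests of the subunits that include it are given with and without it. Other processing settings, the sums of marker genes and the check of same-numbered libraries include it unless stated. Of 15 markers of kidney epithelium, 10 were at 1 CPM (read pairs scaled to a common library size) or more in all ACHN libraries and 9 in all HK-2 libraries, including PAX8 and the keratins KRT8 and KRT18, but the proximal tubule transporters AQP1 and SLC34A1 and the receptor LRP2 stayed under 1 CPM in all libraries of both lines. The labels call ACHN a clear cell carcinoma. Of 5 markers of that tumour, ANGPTL4 and VHL were at 1 CPM or more in all ACHN libraries, and CA9 was under 1 CPM in all of them. The sum of these 5 markers was 61.7 to 62.5 CPM in shNC and 92.1 to 94.6 CPM in shKDM5C ACHN cells. It was 68.8 to 73.6 CPM in shYY1 and 328 to 343 CPM in double-knockdown ACHN cells. The last sum is not a rise of the whole list. Of the 4 markers that could be tested against shNC, 2 were called lower and 2 higher (edgeR). Their log2 fold changes ran from -1.21 to 5.68, with a median of -0.33. Of all genes tested, 32.0% were called lower and 30.7% higher. Of 10 markers of other cell types, 7 in ACHN and 5 in HK-2 cells were under 1 CPM throughout, among them the blood cell markers PTPRC and HBB. The sum of these 10 markers, set in ACHN mainly by the collagen and actin genes COL1A1 and ACTA2, was 559 to 611 CPM in shNC, 63.7 to 67.2 CPM in shKDM5C, 182 to 191 CPM in shYY1 and 150 to 169 CPM in double-knockdown ACHN cells, and 42.4 to 44.7, 31.6 to 39.1, 55.9 to 64.2 and 94.8 to 106 CPM in the same order of HK-2 groups. The part of these shifts in the condensin results was not tested.

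The hairpin targets were examined first, as FPKM (the CPM of a gene divided by its exon length in kilobases, with library sizes scaled by edgeR's TMM method within a line). KDM5C fell in ACHN cells from 8.004, 8.002 and 7.896 FPKM in shNC to 4.70, 4.98 and 4.79 in shKDM5C and 4.54, 4.66 and 4.59 in double-knockdown cells. YY1 fell from 15.2, 15.7 and 16.1 FPKM to 8.996, 8.24 and 8.70 in shYY1 and to 10.3, 11.8 and 10.9 in double-knockdown cells, where it stayed above shYY1 (edgeR log2 fold change 0.35, adjusted p = 5.36e-05). Relative to their own control, HK-2 cells were depleted further. Their KDM5C level went from a mean of 22.2 FPKM to 6.61 in shKDM5C (4.28, 7.83 and 7.72, the lowest in the library that stood apart) and 7.88 in double-knockdown cells, and YY1 from 24.2 to 7.42 in shYY1 and 8.59 in double-knockdown cells. With TMM over all 24 libraries, mean KDM5C was 6.52 FPKM in shKDM5C and 7.79 in double-knockdown HK-2 cells. These means were above those of ACHN, at 4.90 and 4.63. Mean YY1 was lower in HK-2, at 7.35 against 8.76 in shYY1 and 8.49 against 11.1 in double-knockdown cells. In shYY1 cells KDM5C itself was higher than in shNC, by 0.34 (ACHN) and 0.35 (HK-2) on the log2 scale.

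In control cells NCAPD2, a HEAT-repeat subunit of condensin I, was the most abundant of the 8 mRNAs per length, and NCAPD3, its counterpart in condensin II, the least abundant. In ACHN shNC cells the order was NCAPD2 (45.4 FPKM), SMC2 (22.7), SMC4 (21.3), NCAPG2 (20.7), NCAPH (16.6), NCAPH2 (11.96), NCAPG (9.17) and NCAPD3 (7.37), and the libraries of SMC2 overlapped with those of SMC4 and the libraries of SMC4 with those of NCAPG2. In HK-2 shNC cells it was NCAPD2 (61.8), SMC4 (43.7), SMC2 (26.4), NCAPG (24.7), NCAPH2 (19.4), NCAPG2 (17.4), NCAPH (17.3) and NCAPD3 (8.67), where only NCAPG2 and NCAPH overlapped. The counting used no strand, and some exons lie opposite exons of other genes. These shared bases are 33.14% of NCAPG (opposite LCORL), 25.64% of SMC4 (TRIM59 and IFT80), 8.887% of NCAPD3 (JAM3, VPS26B and a gene without a name) and 7.492% of NCAPD2 (MRPL51), so that the levels of these 4 genes carry an uncertainty that the other 4, which share no exon base, do not.

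The 2 control lines differed in which subunits they held (levels on a TMM scale over all 24 libraries). NCAPG, the condensin I HEAT subunit on chr4:17810902-17844862 (ENSG00000109805), was at 9.07, 9.52 and 9.25 FPKM in ACHN and at 23.6, 25.8 and 23.9 FPKM in HK-2 shNC cells, a log2 difference of -1.39 (standard error 0.05, adjusted p = 1.06e-19, edgeR). SMC4 was at 20.7, 21.3 and 22.8 FPKM in ACHN and at 42.9, 44.5 and 42.5 in HK-2 cells (-0.996, standard error 0.0377, adjusted p = 3.27e-19). For both genes every ACHN library was below every HK-2 library. In all, 6 of the 8 subunits were lower in ACHN (background 38.0% of all genes tested) and 1 was higher (background 38.6%). The other lower ones were NCAPH2 (-0.66), NCAPD2 (-0.41), NCAPD3 (-0.20) and SMC2 (-0.18). The SMC2 call was lost with all 8 groups in the fit (adjusted p = 0.328, edgeR). That fit includes the HK-2 shKDM5C library that stood apart and was not rerun without it. The higher one was NCAPG2, with 21.0 against 17.3 FPKM (0.29, adjusted p = 2.86e-07). NCAPH, the condensin I kleisin, was at 16.8 and 17.1 FPKM with overlapping libraries (-0.02, adjusted p = 0.8).

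**Figure D1:**
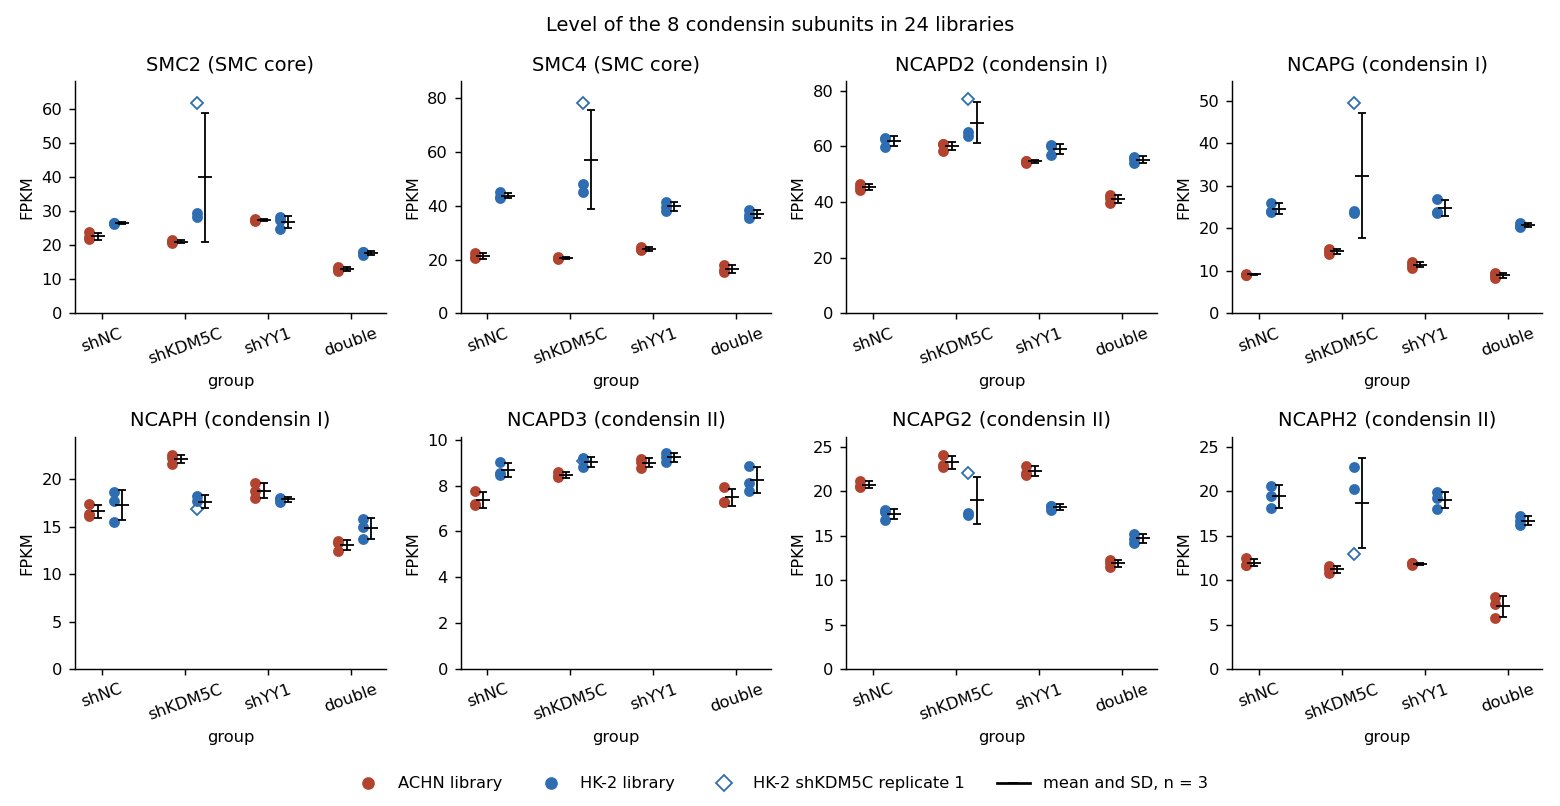
FPKM of each condensin subunit (vertical axes from 0, each with its own range) by group, with ACHN libraries in red, HK-2 libraries in blue, the HK-2 shKDM5C library that stood apart as an open diamond, and the mean and SD of 3 libraries in black. SMC2 falls in the double knockdown of both lines, from 22.7 to 13.0 FPKM in ACHN and from 26.4 to 17.7 FPKM in HK-2 cells.

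Whether depletion of KDM5C alone touches the condensin genes was asked by setting shKDM5C against shNC. In ACHN cells the condensin I subunits rose and the SMC pair did not. NCAPG had 8.97, 9.40 and 9.15 FPKM in shNC and 14.7, 14.0 and 15.2 FPKM in shKDM5C cells, a rise of 0.67 on the log2 scale (adjusted p = 1.15e-11 and standard error 0.0484 in edgeR). The groups were far apart, and this was the largest rise of any subunit in the series' ACHN comparisons with shNC. NCAPD2 (ENSG00000010292, chr12:6493356-6531955) went from 44.3, 45.3 and 46.5 to 60.8, 58.3 and 61.0 FPKM (0.40, adjusted p = 4.51e-11). NCAPH (ENSG00000121152, chr2:96335787-96373845) went from 16.3, 16.1 and 17.4 to 22.2, 21.6 and 22.6 FPKM (0.41, adjusted p = 3.87e-08). All 3 condensin I genes thus had every shKDM5C library above every shNC library. Condensin II moved less, with NCAPD3 at 0.19 (adjusted p = 0.000679), NCAPG2 at 0.16 (adjusted p = 0.000482) and the kleisin NCAPH2 at -0.10 (adjusted p = 0.128). In total 5 of 8 subunits were called higher, where 28.9% of all genes tested were, and 1 was called lower, SMC2 at -0.11 (adjusted p = 0.0121), where 27.7% of all genes were. The SMC2 call was lost without shNC replicate 3 (-0.08, adjusted p = 0.118) and under DESeq2 (adjusted p = 0.0751). SMC4 was at -0.05 (adjusted p = 0.243). Scaled by total counts in place of TMM, 5 were called higher and 3 lower, with SMC4 (-0.10) and NCAPH2 (-0.15) beside SMC2. Since these are bulk libraries, fewer cells in a phase of the cycle and less RNA per cell cannot be told apart, here and in what follows. All comparisons with shNC within a line use the same 3 control libraries.

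Depletion of YY1 alone in ACHN cells went with small rises. SMC2 (ENSG00000136824, chr9:104094260-104141417) had 22.3, 21.9 and 23.9 FPKM in shNC and 27.4, 27.6 and 27.0 FPKM in shYY1 cells, with no overlap (0.25, standard error 0.0345, adjusted p = 2.2e-07, edgeR). Its partner SMC4 (ENSG00000113810, chr3:160399274-160434962) had 20.4, 21.0 and 22.6 against 23.5, 24.7 and 23.7 FPKM (0.15, adjusted p = 0.00059). The condensin I genes rose as well, NCAPG by 0.30, NCAPD2 by 0.25 and NCAPH by 0.16 on the log2 scale. Of condensin II, NCAPD3 rose by 0.27 and NCAPG2 by 0.08 (adjusted p = 0.0425), while NCAPH2 was at -0.04 (adjusted p = 0.586). These make 7 of 8 subunits called higher, against 24.2% of all genes tested, and the libraries of those 7 did not overlap with shNC. The call of NCAPG2 was lost without shNC replicate 1 or 2 or shYY1 replicate 1 or 3 (adjusted p of 0.0633 to 0.188), under DESeq2 and under scaling by total counts, and that of NCAPH without shYY1 replicate 1 (adjusted p = 0.0566).

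The double knockdown of ACHN cells had less of most condensin mRNAs than the control, and SMC2 and the condensin II subunits NCAPG2 and NCAPH2 fell the most. SMC2 was at 12.5, 13.6 and 12.9 FPKM, against 22.3, 21.9 and 23.9 in shNC, which is 57.2% of the control (-0.80 on the log2 scale, standard error 0.0512, adjusted p = 1.19e-10, edgeR). NCAPG2 (ENSG00000146918, chr7:158631311-158704829, minus strand) had 20.6, 20.4 and 21.2 FPKM in shNC and 12.2, 11.9 and 11.5 FPKM in the double knockdown, again 57.2% of the control (-0.81, standard error 0.0467, adjusted p = 3e-11). NCAPH2 (ENSG00000025770, chr22:50508216-50523472) had 11.7, 12.5 and 11.7 FPKM against 8.10, 5.75 and 7.26 FPKM, 58.9% of the control (-0.76, standard error 0.0935, adjusted p = 9.26e-07). The knockdown libraries of NCAPH2 spread more than those of any other subunit in ACHN cells relative to their mean, yet all 3 stayed below the control. SMC4 fell to 16.1, 18.0 and 15.4 FPKM (-0.38, adjusted p = 1.43e-05), and NCAPH to 13.3, 13.4 and 12.5 FPKM (-0.35, adjusted p = 5.31e-05). NCAPD2 was only slightly lower, at 39.7, 41.4 and 42.6 FPKM (-0.14, adjusted p = 0.0105), and this call was lost without shNC replicate 3 (adjusted p = 0.0571). NCAPG, at 8.32, 9.46 and 9.11 FPKM, overlapped with its control (-0.04, adjusted p = 0.649), and so did NCAPD3 (ENSG00000151503, chr11:134150119-134225454, minus strand) at 7.29, 7.93 and 7.28 FPKM (0.02, adjusted p = 0.765). In all 6 of 8 subunits were called lower, against 32.0% of all genes tested, and none was called higher (background 30.7%).

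**Figure D2:**
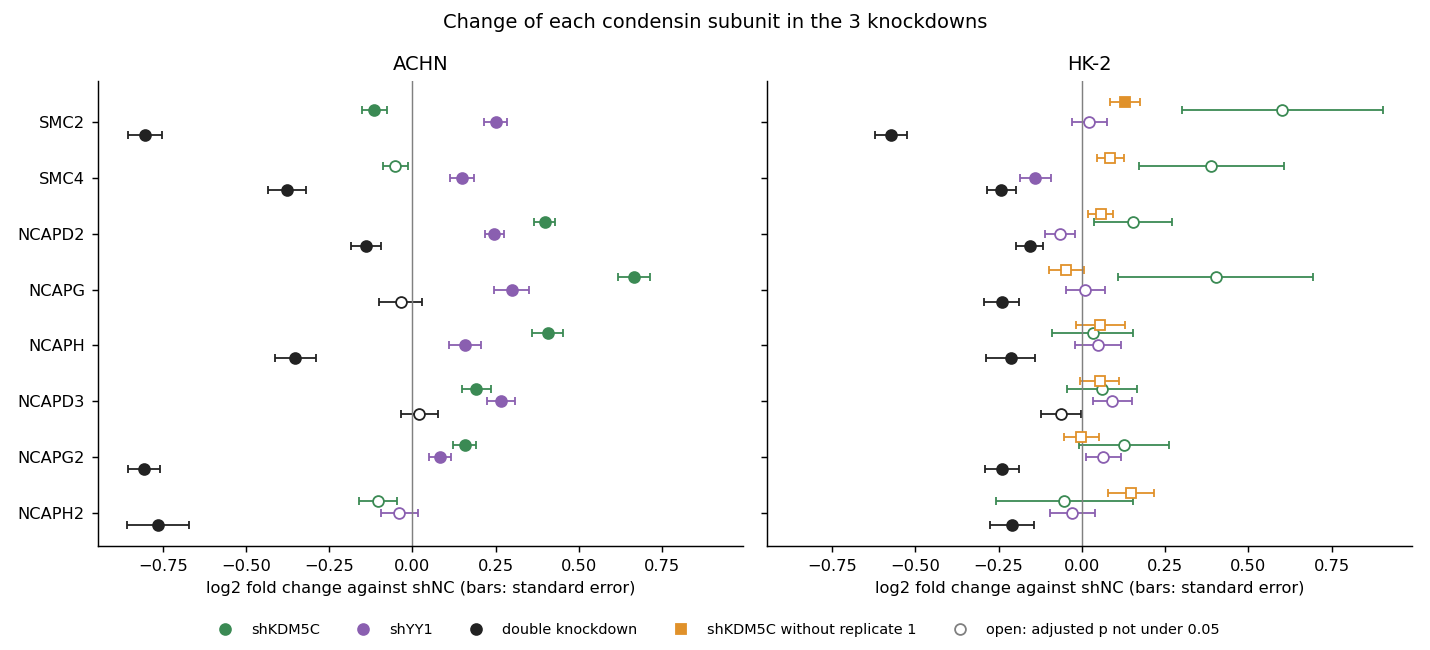
log2 fold change of each subunit against shNC (horizontal axis) in ACHN (left) and HK-2 cells (right), by knockdown, with standard errors derived from the F statistic of edgeR and filled symbols for an adjusted p under 0.05. In ACHN cells the double knockdown reaches -0.81 (NCAPG2) and -0.80 (SMC2) while the single knockdowns lie between -0.11 and 0.67, and in HK-2 cells leaving out the shKDM5C library that stood apart takes SMC2 from 0.60 to 0.13.

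Set against each single knockdown, the double knockdown of ACHN cells was lower for all 8 subunits. Against shKDM5C cells 8 of 8 were called lower (background 30.9%), from -0.17 for NCAPD3 (adjusted p = 0.0124, edgeR, and 0.0797 under total counts) to -0.96 for NCAPG2 (adjusted p = 2.11e-11). Against shYY1 cells 8 of 8 were called lower (background 32.7%), from -0.26 for NCAPD3 (adjusted p = 0.000305) to -1.07 for SMC2 (adjusted p = 4.54e-12). No double-knockdown library of any subunit reached the range of either single knockdown. NCAPG and NCAPD3, which did not pass the test against shNC, were lower than in shYY1 cells by 0.35 and 0.26 and lower than in shKDM5C cells by 0.70 and 0.17 on the log2 scale.

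The interaction term of a model with all 12 ACHN libraries asks whether the double knockdown differs from the sum of the single effects. It was negative for 8 of 8 subunits (background 28.8% lower). For NCAPG2 the single effects summed to 0.24 and the double knockdown was at -0.81, an interaction of -1.07 (standard error 0.0567, adjusted p = 2.98e-14, edgeR). NCAPG, which did not pass the test against shNC, had a sum of 0.96 against -0.04, an interaction of -1.02 (standard error 0.0806, adjusted p = 5.92e-11). SMC2 had a sum of 0.13 against -0.80, an interaction of -0.96 (standard error 0.0601, adjusted p = 6.92e-13). NCAPH was at -0.94, NCAPD2 at -0.81, NCAPH2 at -0.64, SMC4 at -0.50 and NCAPD3 at -0.46, where NCAPD3 had the smallest departure and NCAPG2 the largest. The interaction uses the same libraries as the comparisons above and is not a separate experiment. It cannot be told apart from the added infection and selection for green fluorescence, stated only for the double knockdown. The targets were not additive either, with KDM5C at -0.42 (adjusted p = 6.48e-06) and YY1 at 0.28 (adjusted p = 0.00125, edgeR). The part of this in the subunit values was not tested. The median interaction of all genes tested was 0.01.

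**Figure D3:**
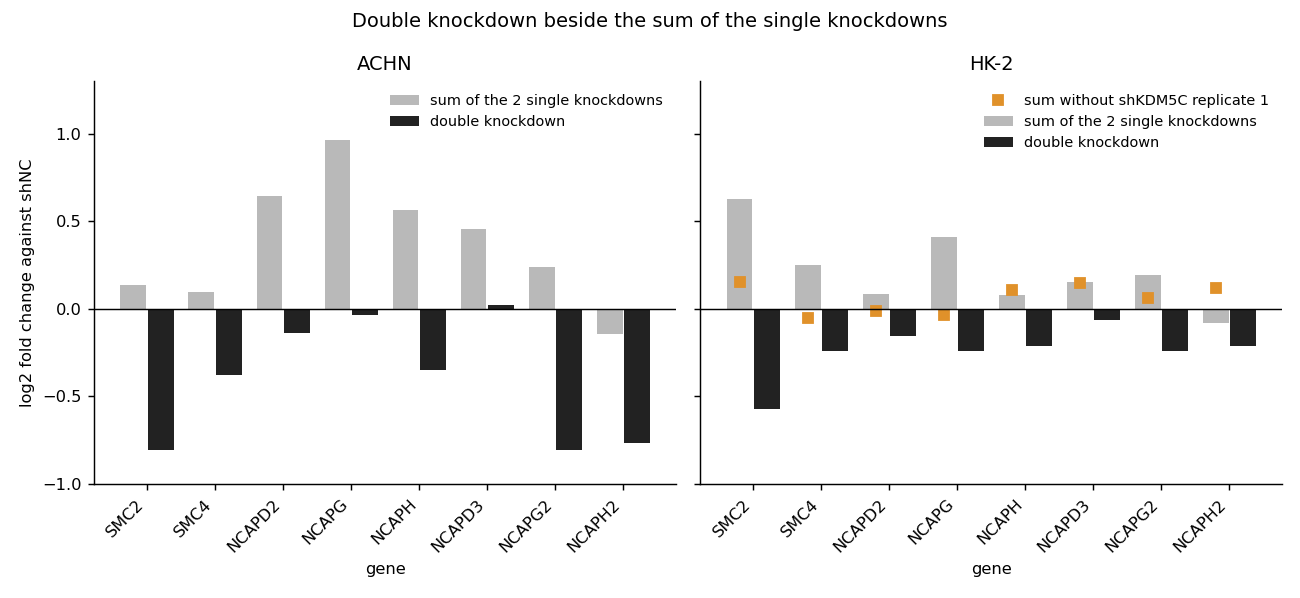
log2 fold change against shNC for each subunit (horizontal axis) in the double knockdown (black) beside the sum of both single knockdowns (grey), with ACHN on the left, HK-2 on the right and orange squares for the HK-2 sum without the shKDM5C library that stood apart. In ACHN the grey bars reach 0.96 (NCAPG) and only that of NCAPH2 is below 0, while the black bars are below 0 for all subunits but NCAPD3.

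In HK-2 cells the comparison of shKDM5C with shNC was dominated by replicate 1. Replicates 1 to 3 had 61.9, 28.3 and 29.5 FPKM of SMC2, against 26.1, 26.4 and 26.7 in shNC (0.60, standard error 0.302, adjusted p = 0.382, edgeR). SMC4 had 78.2, 44.99 and 47.9 FPKM against 43.3, 44.9 and 43.0, and NCAPG had 49.5, 24.2 and 23.6 FPKM against 23.8, 26.0 and 24.2. NCAPH2 went the other way in the same library, with 13.0, 22.7 and 20.3 FPKM against 19.5, 18.1 and 20.6. With all libraries 0 of 8 subunits were called by edgeR (background 1.32% in either direction), and 0 had an unadjusted p under 0.05, and DESeq2 also called 0, with 1 at an unadjusted p under 0.05. Without replicate 1, SMC2 was 0.13 higher (standard error 0.0454, adjusted p = 0.0412, edgeR). This was 1 of 8 called higher, a share near that of all genes (background 11.5%). SMC4 (0.09), NCAPD2 (0.06) and the other 5 did not pass the test. In that fit NCAPG was at -0.05 and NCAPH2 at 0.15.

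YY1 depletion alone left HK-2 condensin mRNAs near their control. SMC4 was at 38.1, 39.5 and 41.5 FPKM in shYY1 cells, just below the shNC libraries (43.3, 44.9 and 43.0). It was the 1 subunit of 8 called lower (-0.14, standard error 0.047, adjusted p = 0.0278, edgeR), a share near that of all genes (background 14.7%). The other 7 overlapped with shNC, from -0.07 for NCAPD2 to 0.09 for NCAPD3, with adjusted p of 0.258 or more. The SMC4 call was lost without any 1 of the 3 shNC libraries or shYY1 replicate 1 (adjusted p of 0.055 to 0.107).

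The double knockdown of HK-2 cells had lower SMC2 and smaller decreases of most other subunits. SMC2 was at 17.1, 17.9 and 18.1 FPKM, 67.2% of the control (-0.57, standard error 0.0475, adjusted p = 1.31e-11, edgeR). SMC4 was at 35.5, 38.3 and 36.6 FPKM (-0.24, adjusted p = 1.89e-05). Both were below every control library. NCAPG had 20.6, 20.4 and 21.3 FPKM against 23.8, 26.0 and 24.2 (-0.24, adjusted p = 0.000255), and NCAPD2 had 53.97, 56.3 and 55.4 against 62.6, 59.8 and 63.1 (-0.16, adjusted p = 0.00193). NCAPH, the condensin I kleisin, passed the test (-0.21, adjusted p = 0.0155) although its libraries, 15.8, 14.9 and 13.7 FPKM, overlapped with the control at 17.7, 15.5 and 18.6. Of condensin II, NCAPG2 had 15.2, 14.2 and 14.7 FPKM against 16.8, 17.9 and 17.6 (-0.24, adjusted p = 0.000241). NCAPH2 was at 16.2, 16.7 and 17.2 against 19.5, 18.1 and 20.6 FPKM (-0.21, adjusted p = 0.00811), and NCAPD3 again overlapped (-0.06, adjusted p = 0.403). Thus 7 of 8 subunits were called lower, against 24.3% of all genes tested. The call of NCAPH was lost without shNC replicate 1 or 3 or double-knockdown replicate 3 (adjusted p of 0.0548 to 0.12) and under DESeq2 (adjusted p = 0.0527), and that of NCAPH2 without shNC replicate 3 (adjusted p = 0.0712). When all 4 HK-2 groups were fitted together, the spread of the shKDM5C group entered the test and 0 of 8 were called by edgeR, with 3 at an unadjusted p under 0.05. In that fit without shKDM5C replicate 1, 7 were called, and DESeq2 on the groups compared called 6.

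Against shYY1 cells, 6 of 8 subunits were called lower in the HK-2 double knockdown (background 22.9%), led by SMC2 at -0.59 (adjusted p = 7.78e-09, edgeR) and NCAPG2 at -0.30 (adjusted p = 7.21e-05). SMC4 (-0.10, adjusted p = 0.115) and NCAPD2 (-0.09, adjusted p = 0.14) did not pass. The calls of NCAPD3 (-0.15, adjusted p = 0.0489) and NCAPH2 (-0.18, adjusted p = 0.031) were each lost under DESeq2 (adjusted p = 0.0702 and 0.0533) and without any 1 of 4 libraries, which are shYY1 replicates 1 and 3 and double-knockdown replicates 2 and 3 for NCAPD3 and shYY1 replicates 2 and 3 and double-knockdown replicates 1 and 2 for NCAPH2, and SMC4 passed without shYY1 replicate 1 (adjusted p = 0.0428). Fitted with all 4 groups, 1 was called, and 6 in that fit without shKDM5C replicate 1. Against shKDM5C cells, 1 of 8 was called lower (background 5.59%), SMC2 at -1.17 (standard error 0.301, adjusted p = 0.0465), a call lost without shKDM5C replicate 3 (adjusted p = 0.052) or any 1 double-knockdown library (adjusted p of 0.165 to 0.177). Without replicate 1, 7 of 8 were called lower (background 21.0%), with SMC2 at -0.71 (adjusted p = 7.54e-11), NCAPH2 at -0.36 and SMC4 at -0.33, and NCAPD3 not passing (-0.12, adjusted p = 0.142).

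The interaction in HK-2 cells was called for 1 of 8 subunits, SMC2 (-1.19, standard error 0.322, adjusted p = 0.0352, edgeR; background 4.40% lower). That call was lost without any 1 library of the shNC, shYY1 or double-knockdown group (adjusted p of 0.0613 to 0.0869), and NCAPG2 passed without shKDM5C replicate 3 (-0.49, adjusted p = 0.0491). Without shKDM5C replicate 1 it was called for 5 of 8 (background 13.7%), SMC2 at -0.72 (standard error 0.0745, adjusted p = 1.45e-08), NCAPH2 at -0.32, NCAPH at -0.31, NCAPG2 at -0.30 and SMC4 at -0.18 (adjusted p = 0.0455). SMC2 was thus at -1.19 or -0.72 in HK-2 cells, beside -0.96 in ACHN cells. The interaction of KDM5C and YY1 themselves was not called with all HK-2 libraries. Without shKDM5C replicate 1, KDM5C was at -0.32 (adjusted p = 0.00244, edgeR) and YY1 at 0.15 (adjusted p = 0.159). As in ACHN cells, the term cannot be told apart from the added infection and selection of the double knockdown.

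Whether a knockdown changed condensin differently in the 2 lines was tested as an interaction of line and knockdown. In the double knockdown 4 of 8 subunits differed (background 46.0% in either direction, so that their share was near that of all genes). The fall was larger in ACHN for NCAPG2 (log2 difference -0.55, standard error 0.0679, adjusted p = 1.03e-07, edgeR), NCAPH2 (-0.53, adjusted p = 0.000353) and SMC2 (-0.21, adjusted p = 0.0118), and smaller in ACHN for NCAPG (0.22, adjusted p = 0.0236), a call lost without any 1 of 7 of the 12 libraries (all ACHN shNC, ACHN double-knockdown replicates 2 and 3, HK-2 shNC replicate 2 and HK-2 double-knockdown replicate 2, adjusted p of 0.0543 to 0.129) and under DESeq2 (adjusted p = 0.0698). SMC4 passed without ACHN double-knockdown replicate 2 (-0.19, adjusted p = 0.0183). The shYY1 effect was more positive in ACHN for 5 of 8 (background 16.6%), with NCAPD2 at 0.32 (adjusted p = 1.59e-05), SMC4 and NCAPG at 0.30, SMC2 at 0.24 and NCAPD3 at 0.19. The NCAPD3 call was lost without ACHN shNC or shYY1 replicate 1 or 2, HK-2 shNC replicate 2 or HK-2 shYY1 replicate 2 (adjusted p of 0.0698 to 0.101). The shKDM5C effect differed for 0 of 8 with all libraries (edgeR, background 11.9% in either direction), where 3 had an unadjusted p under 0.05 and DESeq2 called 1, NCAPH, which also passed in edgeR without HK-2 shNC replicate 2 (0.47, adjusted p = 0.0387). Without HK-2 replicate 1 it differed for 6 of 8 (background 33.9%), and NCAPG was the furthest at 0.72 (adjusted p = 1.78e-09), followed by NCAPH (0.36) and NCAPD2 (0.35). SMC2 (-0.24) and NCAPH2 (-0.25) were on the other side. The hairpins also lowered their targets less in ACHN, by 0.99 (YY1) and 0.71 (KDM5C) on the log2 scale in the double knockdown, and the part of that in the differences between lines was not tested.

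The balance between the complexes was described by the ratio of the geometric mean FPKM of NCAPD2, NCAPG and NCAPH to that of NCAPD3, NCAPG2 and NCAPH2. In ACHN shNC cells it was 1.55, 1.56 and 1.57. It was 2.08, 1.97 and 2.16 in shKDM5C, 1.73, 1.68 and 1.70 in shYY1 and 1.83, 2.13 and 2.00 in double-knockdown cells, and each knockdown was thus above all 3 controls. The subunits behind it differed. In shKDM5C cells the condensin I mean rose from 19.0 to 26.9 FPKM with condensin II at 12.2 and 13.0, while in the double knockdown condensin I was at 16.9 and condensin II at 8.53. In HK-2 cells the ratio was 2.02 to 2.11 in shNC, 1.93 to 2.10 in shYY1 and 2.01 to 2.07 in double-knockdown cells, which overlap. Of the shKDM5C libraries replicate 1 was at 2.92 and the other 2 at 1.97 and 2.07.

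SMC2 and SMC4 pair in equal numbers in the complex, but the ratio of their mRNAs differed between groups. The ratio of SMC2 to SMC4 (FPKM) was 1.04 to 1.09 in ACHN shNC cells and 0.755 to 0.841 in the double knockdown, and 0.589 to 0.622 in HK-2 shNC cells and 0.468 to 0.494 in the double knockdown. In both lines the double-knockdown libraries were below every other group. shYY1 cells had the highest ratios in ACHN (1.12 to 1.17), and in HK-2 cells they were at 0.655 to 0.714, where only shKDM5C replicate 1 was higher (0.792). Some SMC4 exon bases lie opposite exons of TRIM59 and IFT80, and the part of this overlap in the ratio was not tested.

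**Figure D4:**
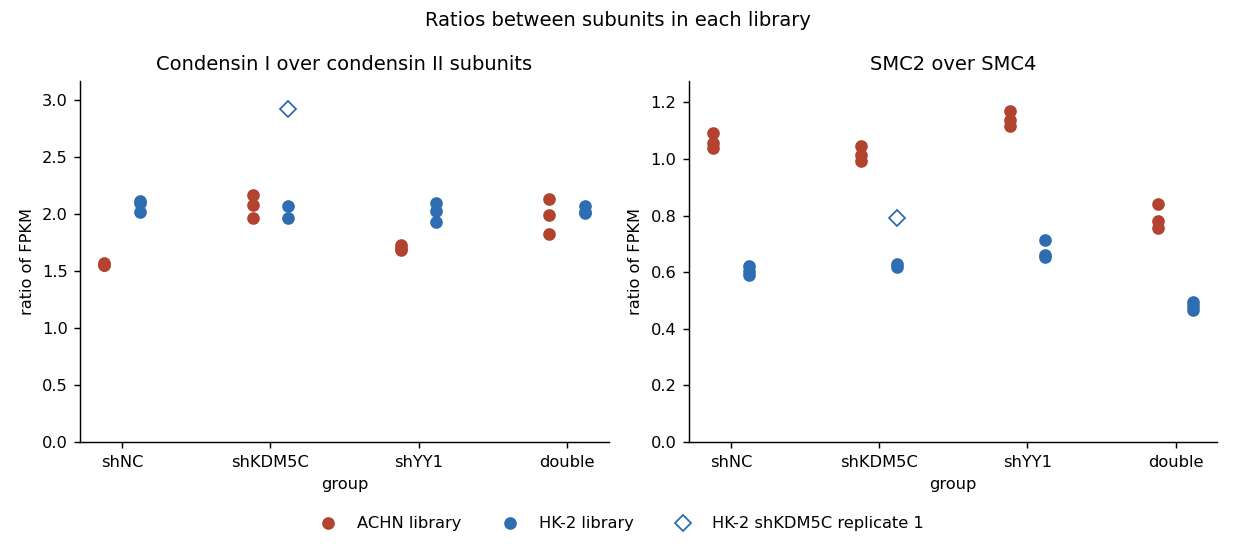
Ratio of FPKM in each library (vertical axes from 0) by group, for condensin I over condensin II subunits (left) and SMC2 over SMC4 (right), with ACHN in red, HK-2 in blue and the HK-2 shKDM5C library that stood apart as an open diamond. ACHN shNC sits at 1.55 to 1.57 in the left panel, below the other ACHN groups, and the double knockdown is lowest in both lines in the right panel.

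Genes that work beside condensin were counted in lists. These were 17 genes of cohesin, the SMC complex that holds sister chromatids together, 9 of the SMC5/6 complex, 21 regulators of condensin and partners in chromosome assembly, 14 S phase genes and 11 factors that act at cell cycle promoters. In the ACHN double knockdown the 8 condensin subunits had a median log2 fold change of -0.36, against -0.01 for all genes tested, of which 32.0% were called lower and 30.7% higher. Cohesin had 9 of 17 lower, 2 higher and 6 that did not pass (median -0.18), with SMC1A at -0.83 and SMC3 at -0.51, its ring subunits, and the release factor WAPL at 0.17 and the loader MAU2 at 0.42. SMC5/6 had 4 of 9 lower and 1 higher (median -0.34), with SMC5 at -0.60, SLF1 at -0.41 and SLF2 at 0.29. The regulators had 11 of 21 lower and 2 higher (median -0.19), with the chromokinesin KIF22 at -0.82, the mitotic cyclin CCNB2 at -0.68, topoisomerase TOP2A at 0.25 and AKAP8 at 0.33. S phase genes had 12 of 14 lower and 1 higher (median -0.86), with the replication factors GINS2 at -1.86 and MCM6 at -1.63 and the sliding clamp PCNA at 0.19. The promoter factors had 6 of 11 lower and 2 higher (median -0.52), with MYBL2 at -1.01, RBL2 at 0.35 and NFYA at 0.63, and LIN37 at -2.41 from 1.87 to 0.338 CPM. The summed S phase level was 1796 to 1825 CPM in ACHN shNC and 1082 to 1117 CPM in the double knockdown, and 3265 to 3343 and 2022 to 2102 CPM in HK-2 cells. The part of this shift in the condensin values was not tested.

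In the HK-2 double knockdown the condensin median was -0.23, against -0.0026 for all genes tested, of which 24.3% were called lower and 25.5% higher. S phase genes were lower in 14 of 14 (median -0.64), with GINS2 at -1.70 and MCM4 at -1.02. Cohesin had 7 of 17 lower and 4 higher (median -0.08), with SMC1A at -1.36, the acetyltransferases ESCO2 at -0.71 and ESCO1 at 0.45, and securin (PTTG1) at 0.46. The share of cohesin genes called higher was near that of all genes. SMC5/6 had 2 of 9 lower and 0 higher (median -0.12), SLF1 at -0.45 and SLF2 at -0.21, a share near that of all genes. The regulators had 10 of 21 lower and 4 higher (median -0.14), with cyclin CCNA2 at -0.87 and MKI67 at -0.54, and AURKB, the kinase that loads condensin I, at 0.26 and CSNK2A1 at 0.47. Of 10 promoter factors tested, 6 were lower and 2 higher (median -0.23), MYBL2 at -0.84, FOXM1 at -0.51, NFYA at 0.25 and LIN54 at 0.48.

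Under the single knockdowns of ACHN cells the regulators rose with condensin I, 17 of 21 higher and 0 lower in shKDM5C cells (median 0.44) and 15 of 21 higher and 0 lower in shYY1 cells (median 0.20). Of all genes tested, 28.9% were called higher and 27.7% lower in shKDM5C cells, and 24.2% higher and 24.5% lower in shYY1 cells. Cohesin had 11 of 17 higher and 1 lower in shKDM5C cells and 8 higher and 4 lower in shYY1 cells. S phase genes had 4 of 14 higher and 5 lower in shKDM5C and 2 higher and 7 lower in shYY1 cells. SMC5/6 had 2 of 9 higher and 1 lower in shKDM5C and 3 of each in shYY1 cells, and the promoter factors had 4 of 11 higher and 3 lower and 3 higher and 1 lower, respectively. The shares of S phase genes called higher and of promoter factors called lower in shKDM5C cells were near those of all genes. So were the shares of cohesin genes called lower and of promoter factors called higher in shYY1 cells. The interaction in ACHN was called lower for 18 of 21 regulators and higher for 0 (median -0.98), where 28.8% of all genes tested were called lower and 26.8% higher. It was called lower for 12 of 14 S phase genes and higher for 0, for 10 of 17 cohesin genes with 1 higher, for 6 of 11 promoter factors with 2 higher, and for 3 of 9 SMC5/6 genes with 2 higher (median -0.11). The SMC5/6 shares were near those of all genes. In HK-2 shYY1 cells the regulators had 6 of 21 lower and 3 higher, cohesin 2 of 17 lower and 1 higher, SMC5/6 1 of 9 lower, S phase genes 2 of 14 in each direction and the promoter factors 2 of 11 in each direction, where 14.7% of all genes were called lower and 14.3% higher, so that most of these counts were near the background. In HK-2 shKDM5C cells 0 of the 71 genes of these 5 lists that could be tested were called with all libraries by edgeR, and 7 had an unadjusted p under 0.05. Without replicate 1, where 22.3% of all genes were called in either direction, the calls were 3 of 17 for cohesin, 1 of 9 for SMC5/6, 3 of 21 for the regulators, 3 of 14 for S phase genes and 2 of 11 for the promoter factors.

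For each subunit the genes with the most similar pattern over the 24 libraries were sought among 10054 genes with a mean of at least 10 CPM, as the Pearson correlation of log2(CPM + 1) centred within each line. The points share the libraries and their depth, and the values are descriptions. NCAPD2 was most like KIF4A, the kinesin that works with condensin on chromosome arms (r = 0.947), followed by CENPN and DLGAP5. NCAPH was most like BIRC5 (survivin, r = 0.953), SORD and CDC20, and NCAPG was most like CKAP2 (r = 0.961), TTK and SOAT1. SMC2 was most like PRPF4B (r = 0.952), SMC4 and TMPO, and SMC4 was most like SMC2 (r = 0.946), SYNE2 and MKI67. For the condensin II genes other genes ranked closest over these 24 libraries. NCAPG2 was most like CYCS (r = 0.96), PSMA4 and HNRNPR, NCAPH2 was most like CARHSP1 (r = 0.96), TKT and PKN3, and NCAPD3 was most like EFEMP1 (r = 0.851), RBM28 and LYN, with the lowest value of the 8. Without HK-2 shKDM5C replicate 1 only 9 of these 24 genes stayed among the closest 3, including all 3 of NCAPH2. NCAPD2 was then most like the mitotic kinase PLK1 (r = 0.979), and NCAPG2 most like USP1 (r = 0.982). SMC2 was then most like MTARC1 (r = 0.968), FGFR2 and EIF2AK1, and SMC4 most like TMEM123 (r = 0.938), GDF6 and SMC2.

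Among the subunits themselves, SMC2 and SMC4 had r = 0.946 over 24 libraries and 0.922 without that library. NCAPD2 had r = 0.876 with NCAPG and 0.835 with NCAPH, and 0.905 and 0.910 without it. NCAPG2, of condensin II, had r = 0.857 with NCAPH and 0.820 with SMC2, and 0.885 and 0.872 without it. Pairs with NCAPH2 moved more, from 0.381 to 0.849 with SMC2, from 0.0144 to 0.420 with NCAPG and from 0.699 to 0.890 with NCAPG2 when it was left out. In that library NCAPH2 was the lowest, and SMC2 and NCAPG the highest, of all HK-2 libraries.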

How the data were processed

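Total RNA from 24 cell line samples was made into NEBNext Ultra libraries and sequenced as read pairs. The authors' methods name the RNA isolater reagent of Vazyme for RNA extraction. The authors aligned the reads with HISAT2 (2.0.5 in the submitters' processing notes) and assigned read pairs to genes with featureCounts, for which the notes give version 1.5.0-p3 and the file headers of all 24 tables give 2.0.1, in paired mode with no strand option, on genes of Ensembl release 84 (GRCh38). The deposited values are raw counts, 1 table per library and without normalization. Of 60675 genes, 56558 were given a symbol from GENCODE 44, and the other 4117 hold 0.243% of the counts.

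Differences in counts were tested by the quasi-likelihood method of edgeR 4.0.16 (R 4.3.3) after its filter on low counts and TMM scaling, with only the libraries of the groups compared, and a gene was called at a Benjamini-Hochberg adjusted p under 0.05 over all genes tested. Interactions were fitted on 12 libraries. The standard errors are not an output of edgeR. Each was derived as the size of the log2 fold change divided by the square root of the F statistic. FPKM were computed from the counts, the exon lengths in the tables and TMM library sizes, within a line unless stated. With 3 libraries a group, each group mean rests on 3 values. The steps were tested on simulated counts. Alternatives were DESeq2 1.42.0, its size factors, total counts, no filter, all groups in a fit, a block on replicate number, the study's fold threshold and each library left out. All 8 subunits were named, with the most changed genes of the other lists in the double knockdowns (up to 2 in each direction) and the 3 genes most like each subunit. The members, lists and tests were chosen with earlier results of these data known. Fits without HK-2 shKDM5C replicate 1 in all-group fits, and the like genes without it, were added after the data were seen. Promoters are from RefSeq (GRCh38.p14).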

Additional observations from a re-analysis of the deposited data

Results flagged for a closer look

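The effect of a knockdown on a subunit differed between the lines by the interaction test of edgeR in 9 cases, given as the log2 fold change in ACHN minus that in HK-2 cells. For YY1 depletion the difference was 0.24 for SMC2, 0.30 for SMC4, 0.32 for NCAPD2, 0.30 for NCAPG and 0.19 for NCAPD3, all more positive in ACHN (5 of 8 subunits, against 16.6% of all genes tested). For the double knockdown it was -0.55 for NCAPG2, -0.53 for NCAPH2 and -0.21 for SMC2, where ACHN fell further, and 0.22 for NCAPG, which fell in HK-2 cells and did not pass the test in ACHN cells (4 of 8, near the 46.0% of all genes called in either direction). The NCAPD3 call was lost without any 1 of 6 libraries (ACHN shNC or shYY1 replicate 1 or 2, HK-2 shNC replicate 2 or shYY1 replicate 2, 0.16 to 0.19), and the NCAPG call in the double knockdown without any 1 of 7 (ACHN shNC replicates 1 to 3, ACHN double-knockdown replicates 2 and 3, HK-2 shNC replicate 2 or double-knockdown replicate 2, 0.17 to 0.21). The lines also differ in how far KDM5C and YY1 were lowered and in their control levels of 7 of the 8 subunits, and the part of either in these 9 differences was not tested.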

How the results depend on the processing

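The counts of called subunits in ACHN cells, in the control lines and in the shYY1 and double-knockdown effects between lines stayed within 1.5 times under every alternative but the study's own threshold (unadjusted p under 0.05 with a log2 change of 1.5 or more in size), which called 0 subunits in each of the 16 comparisons. The other changes were in HK-2 comparisons. With all 4 groups in a fit, shYY1 against shNC had 0 calls, the double knockdown had 0 against shNC, 1 against shYY1 and 5 against shKDM5C cells, and without shKDM5C replicate 1 in that fit the first 3 were 1, 7 and 6. The double knockdown against shKDM5C cells had 2 calls with no filter on low counts and 0 with a replicate block, and the HK-2 interaction had 2 with no filter, 0 with a replicate block and 2 with DESeq2. The shKDM5C effect between lines had 1 call under total counts and 1 under DESeq2. With 1 library left out, the count ranged from 0 to 7 for the double knockdown against shKDM5C cells, 0 to 5 for the HK-2 interaction, 0 to 6 for the shKDM5C effect between lines, 0 to 1 for HK-2 shKDM5C and 0 to 1 for HK-2 shYY1 against shNC. Of the closest genes by pattern, 9 of 24 were kept over 23 libraries. The replicate block changed 2 calls of subunits in 16 comparisons, those of SMC2 in these HK-2 comparisons (adjusted p = 0.0766 and 0.0612 in edgeR). Libraries with the same number did not deviate together (correlations -0.219 to 0.0886 over 12 pairs of groups, none of them over 0.1 in all 3), so the samples share only a number. Of 1888 values of single subunits under alternatives, 37 changed sign, none with a call in either fit. Under total counts these were NCAPH (-0.0516) and NCAPD3 (-0.0262) in HK-2 shKDM5C and SMC2 (-0.0147) and NCAPG (-0.0255) in HK-2 shYY1 cells. With no filter they were NCAPH2 in the shYY1 effect between lines (-0.00645), NCAPD2 in the double-knockdown effect between lines (-0.0123) and NCAPH between control lines (0.0020). The cause was not tested. The ranges with 1 library left out, for the subunits that changed sign, were NCAPG -0.0653 to 0.0202 and NCAPD3 -0.0114 to 0.0577 in the ACHN double knockdown, NCAPG -0.0464 to 0.59, NCAPH -0.0378 to 0.0851, NCAPG2 -0.00103 to 0.19 and NCAPH2 -0.21 to 0.15 in HK-2 shKDM5C, SMC2 -0.0161 to 0.0667, NCAPG -0.0543 to 0.0487, NCAPH -0.0246 to 0.10 and NCAPH2 -0.0776 to 0.0165 in HK-2 shYY1, NCAPH2 -0.36 to 0.00505 in the HK-2 double knockdown against shKDM5C, NCAPH2 -0.32 to 0.034 in the HK-2 interaction, NCAPH2 -0.25 to 0.13 in the shKDM5C effect between lines, NCAPH2 -0.0468 to 0.0503 in the shYY1 effect between lines, NCAPD2 -0.0168 to 0.0656 in the double-knockdown effect between lines, and NCAPH -0.0948 to 0.0326 between the control lines. Of 64 mean levels, 8 moved by at least 1 SD under total counts, and that scaling moved the median ACHN interaction of all genes from 0.01 to 0.11. The HK-2 shKDM5C ratio of condensin I to II was 2.32 with all 3 libraries and 2.02 without replicate 1. Read pairs without molecular identifiers are not independent molecules, so that the p-values rest on the spread between libraries.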
